A study of Homo sapiens with 8 samples.

Results

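The KRAB zinc finger clusters of chromosome 19 are 6 spans in which genes of KRAB zinc finger proteins stand in tandem arrays. They were taken by position alone, in GRCh37 (hg19), and cut into windows of 5 kb, which gave 2240 windows of the 607271 on chromosomes 1 to 22 and X. Each span is called here by the cytogenetic band that holds most of it. The spans are 19p13.2 (11700001 to 12800000, 220 windows), 19p12 (19800001 to 24300000, 900 windows), 19q13.12 (36600001 to 38300000, 340 windows), 19q13.31 (44300001 to 45000000, 140 windows), 19q13.41 (52300001 to 54000000, 340 windows) and 19q13.43 (57600001 to 59100000, 300 windows). Together they make up 11.2 Mb, or 18.9% of the chromosome, and the remaining 9586 windows of chromosome 19 served for comparison. No annotation of GRCh37 was used here, so the label was not checked gene by gene and no gene is placed in a window. In the RefSeq table of another build, GRCh38.p14, 250 of 517 protein-coding genes with a ZNF symbol (48.4%) lie on chromosome 19.

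KRAB zinc finger proteins are the largest family of transcription factors in mammals. Their fingers bind DNA, in many cases inside transposable elements, and their KRAB domain recruits the corepressor TRIM28 and the methyltransferase SETDB1, which writes the repressive mark H3K9me3. The clusters themselves are known as places where H3K9me3 is found over zinc finger genes. H3K27me3, the mark mapped here, belongs to a different repressive pathway: the Polycomb complex PRC2 writes it, typically in broad domains over developmental genes.

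The cells were MOLM14, an established human acute myeloid leukaemia line with an internal tandem duplication in the receptor kinase gene FLT3. They were kept for 24 h with quizartinib (AC220), an inhibitor of that kinase, or with the solvent DMSO, and Drosophila S2 cells had been added before lysis. The study asked what FLT3 inhibition does to this Polycomb mark. Of 8 samples, 4 are H3K27me3 immunoprecipitations, called DMSO 1, AC220 1, DMSO 2 and AC220 2 after treatment and replicate number. The other 4 are inputs, for which no values were used here.

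Each immunoprecipitated library is represented by its own list of broad peaks, and the measure throughout is the covered share, the percentage of bases that lie inside a listed peak. The lists hold no read counts, so depth is unknown and a base outside peaks is one where no peak was listed, not one shown to lack the mark. Libraries numbered 1 (set 1) and libraries numbered 2 (set 2) stood apart: the lists of set 2 covered 591 Mb with DMSO and 497 Mb with AC220, against 232 Mb and 192 Mb in set 1. Values are therefore given by library, and treatments are compared within each set. Nothing in the labels ties the libraries of a treatment to separate cultures, so p-values measure only the spread between libraries, which may be technical.

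Almost none of the sequence of the 6 spans lay inside H3K27me3 peaks. The covered share of the 6 clusters together was 0.122% in DMSO 1, 0.119% in AC220 1, 0.679% in DMSO 2 and 0.776% in AC220 2. The rest of chromosome 19 was covered over 10.6%, 9.62%, 21.2% and 21.1% in the same libraries, which is 87.4, 80.6, 31.2 and 27.2 times as much. The regions did not overlap: the highest value of the clusters, 0.776%, was far below the lowest of the rest, 9.62%. The log2 ratio of clusters to rest averaged -5.63 ± 0.89 (SD, n = 4) and was negative in 4 of 4 libraries (exact sign-flip permutation test over libraries, two-sided, p = 0.125, the smallest that 4 libraries can give). Over chromosomes 1 to 22 and X the covered share was 7.63%, 6.32%, 19.4% and 16.3%, so the clusters were also far below the genome, while the rest of chromosome 19 was above it in every library.

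**Figure D1:**
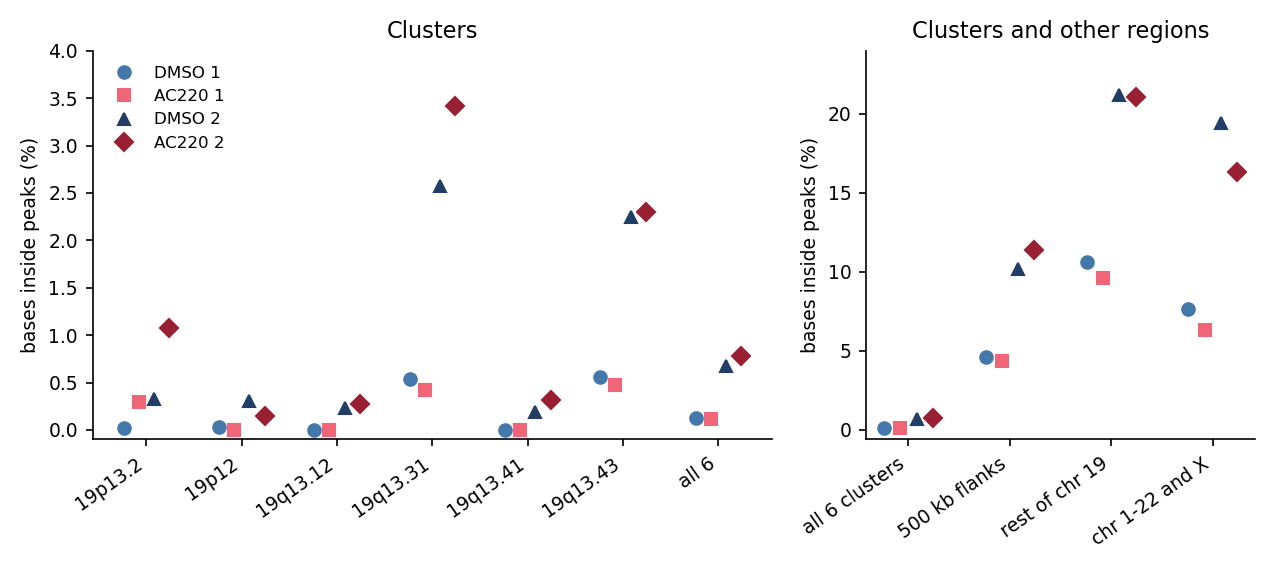
Covered share (percentage of bases inside deposited H3K27me3 peaks) by region, 1 point per library. Left, each cluster and all 6 together on a scale up to 4%; right, all 6 clusters beside their 500 kb flanks, the rest of chromosome 19 and chromosomes 1 to 22 and X on a scale up to 24%. All 4 libraries of the clusters lie between 0.119% and 0.776%, below every point of the other regions.

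In absolute length this meant 13627 bp inside peaks in DMSO 1, 13378 bp in AC220 1, 76074 bp in DMSO 2 and 86931 bp in AC220 2, out of 11.2 Mb. They came from 16, 16, 48 and 61 peaks. Of the 2240 windows, 2156 (96.25%) had no peak base in any library, against 60.7% of windows in the rest of chromosome 19 and 64.6% over chromosomes 1 to 22 and X. Windows with a peak base in all 4 libraries numbered 9 in the clusters (0.402%), against 20.4% in the rest of the chromosome and 14.4% over chromosomes 1 to 22 and X. In tiles of 100 kb the same gap was seen: 80 of 112 cluster tiles (71.4%) were empty in all 4 libraries, against 112 of 480 (23.3%) elsewhere on the chromosome, or 76 of 438 (17.4%) once the centromeric bands were left out.

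**Figure D2:**
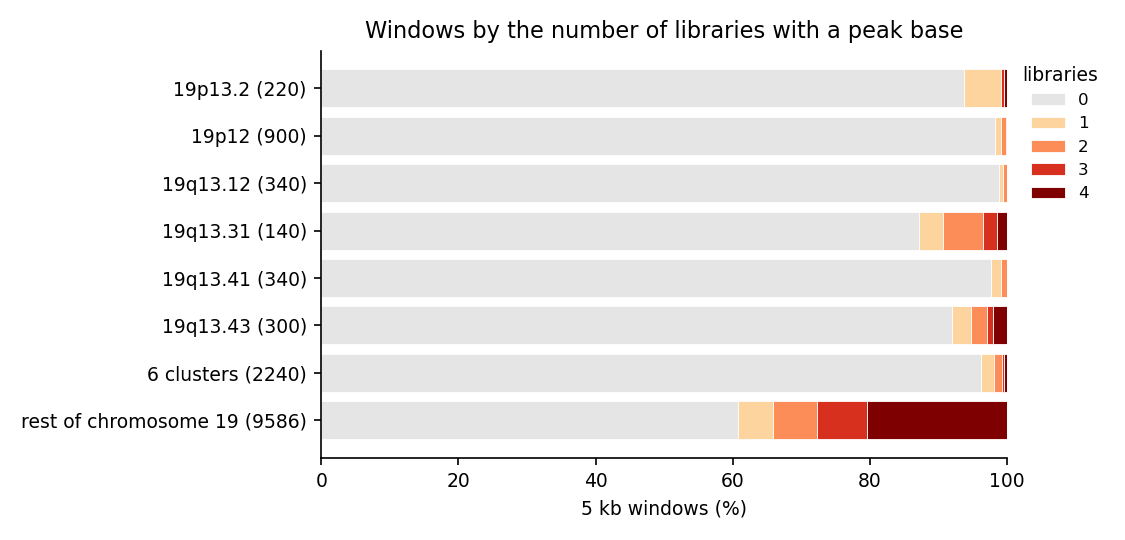
Share of 5 kb windows (x axis, %) by the number of libraries, from 0 to 4, in which the window holds at least 1 peak base, for each cluster, all 6 clusters and the rest of chromosome 19; the number of windows is in brackets. Windows without a peak in any library make up 96.25% of the clusters and 60.7% of the rest.

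The 6 clusters were not equally bare. The clusters 19q13.31 and 19q13.43 had the highest covered shares in all 4 libraries. In 19q13.31 the share was 0.541% in DMSO 1, 0.426% in AC220 1, 2.58% in DMSO 2 and 3.41% in AC220 2. In 19q13.43 it was 0.558%, 0.474%, 2.24% and 2.30%. These clusters exchanged places between the sets, 19q13.43 being higher in set 1 and 19q13.31 in set 2, so their order is not resolved. With 19.6% of the cluster sequence, they held 89.2% of the covered bases in DMSO 1, 75.5% in AC220 1, 67.9% in DMSO 2 and 67.2% in AC220 2. Even so, 19q13.31 was covered 6.17 to 22.6 times less than the rest of the chromosome, and 19q13.43 9.16 to 20.3 times less (lower in 4 of 4 libraries for each; exact sign-flip permutation p = 0.125).

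The remaining clusters were close to empty. Neither 19q13.12 nor 19q13.41 held any peak in either library of set 1. In set 2, 19q13.12 was covered over 0.235% with DMSO and 0.275% with AC220, from 3 peaks in each library, and 19q13.41 over 0.186% and 0.319%, from 3 and 4 peaks. The largest cluster, 19p12, was covered over 0.0272% in DMSO 1, 0.304% in DMSO 2 and 0.147% in AC220 2, and AC220 1 listed no peak in its 4.5 Mb. In 19p13.2 the share was 0.0223% in DMSO 1, 0.298% in AC220 1, 0.324% in DMSO 2 and 1.07% in AC220 2, above the other 3 in every library except DMSO 1, where 19p12 was slightly higher. Their order changed from library to library and is not resolved. The share of windows without a peak base in any library was 98.8% in 19q13.12, 98.2% in 19p12, 97.6% in 19q13.41 and 93.6% in 19p13.2, against 92% in 19q13.43 and 87.1% in 19q13.31. Each of the 6 clusters lay below the rest of chromosome 19 in 4 of 4 libraries, the smallest difference being -9.15 percentage points, in 19q13.43.

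The bare state of 19p12 contrasted with the band on the other side of the centromere. Both 19p12 and 19q12 are variable heterochromatic bands in the Giemsa map. Band 19q12 was covered over 27.9% in DMSO 1, 18% in AC220 1, 52.2% in DMSO 2 and 41.6% in AC220 2, the highest of any band except in AC220 1, where 19q13.2 reached 18.8%. Band 19p12 stood at 0.0278%, 0%, 0.311% and 0.122%.

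Long stretches without any peak ran through the clusters. The longest stretch of chromosome 19 outside the peaks of all 4 libraries began inside 19p12 at 21873405 and ended at 27731225, beyond the centromere. Of its 5.86 Mb, 2.43 Mb lay in the cluster and 56.9% in centromeric bands. The stretches ranked 2, 3 and 4 by length were each wholly inside a cluster: 1418 kb in 19q13.41 (52337146 to 53754942), 829 kb in 19q13.12 (36917606 to 37746863) and 777 kb in 19p12 (20391602 to 21168219). In 19q13.31 the longest was 511 kb (44307674 to 44818465), in 19p13.2 446 kb (11994533 to 12440211) and in 19q13.43 362 kb (58494460 to 58856411). Of the 10 longest peak-free stretches of the chromosome, 6 lay mostly inside a cluster, and of the 20 longest, 9 did. Peak-free stretches of a like order also occurred outside, the longest of them 568 kb (10808451 to 11376781).

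**Figure D3:**
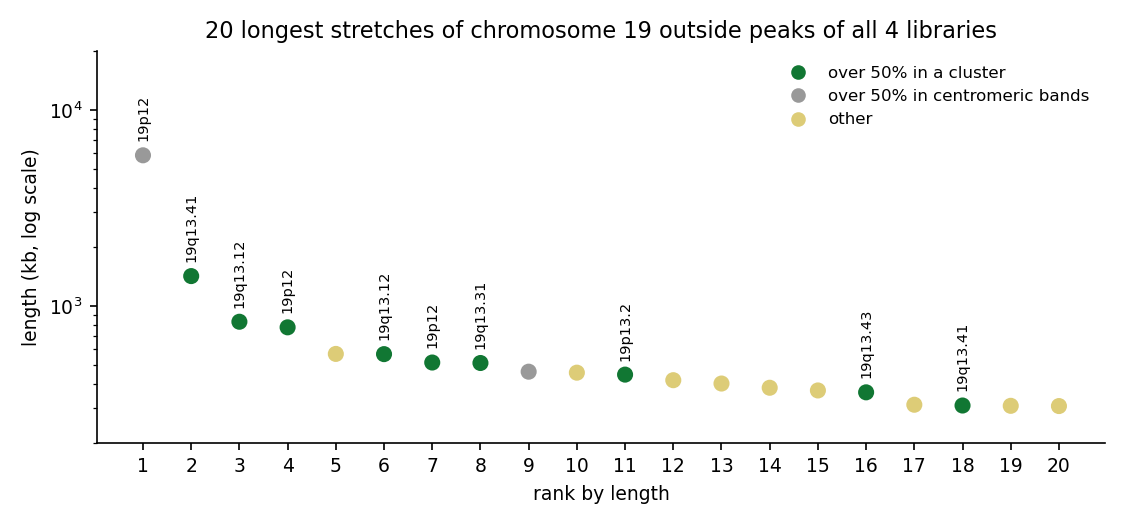
Length (kb, log scale) of the 20 longest stretches of chromosome 19 outside the peaks of all 4 libraries, ordered by length; colour marks stretches mostly in a cluster, mostly in centromeric bands or elsewhere, and bands are named where a cluster is touched. Of the 20, 9 lie mostly inside a cluster, among them ranks 2, 3 and 4.

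The peaks that were listed inside the clusters were short, and their median -log10 q was lower than that of peaks in the rest of the chromosome. Their median width was 812.5 bp in DMSO 1, 675.5 bp in AC220 1, 1358 bp in DMSO 2 and 887 bp in AC220 2, against 1394, 1206.5, 2935 and 2057 bp in the rest of the chromosome. The log2 ratio of these medians averaged -0.99 ± 0.21 (SD, n = 4; lower in 4 of 4 libraries, exact sign-flip permutation p = 0.125). No cluster peak reached 10 kb, of 16, 16, 48 and 61 peaks in DMSO 1, AC220 1, DMSO 2 and AC220 2. Peaks that broad are the form in which H3K27me3 lies over silenced developmental loci. In the rest of the chromosome they numbered 65 of 2099, 50 of 2164, 262 of 1914 and 250 of 2467 in the same order. Their absence from the clusters was not tested, and with 16 cluster peaks in each library of set 1 it has little weight there. The widest cluster peak measured 1922 bp in DMSO 1, 2347 bp in AC220 1, 5263 bp in DMSO 2 and 9277 bp in AC220 2. That last peak, in 19q13.31 (44296309 to 44305585), begins outside the span.

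Median fold enrichment, the authors' value for each peak, differed little between the clusters and elsewhere. It was 2.83, 2.61, 2.07 and 2.05 in cluster peaks of DMSO 1, AC220 1, DMSO 2 and AC220 2, and 2.86, 2.72, 2.16 and 2.16 in the rest. Few cluster peaks were strong by the authors' q-value. A -log10 q of at least 2 was reached by 1 of 16, 2 of 16, 10 of 48 and 14 of 61 cluster peaks. That is 6.25%, 12.5%, 20.8% and 23%, against 23.5%, 22.6%, 47.8% and 41.3% of peaks in the rest of the chromosome. At least 5 was reached by 1, 1, 2 and 3 cluster peaks, which is 6.25%, 6.25%, 4.17% and 4.92%. In the rest of the chromosome that share was 0.905%, 0.786%, 8.25% and 4.99%, so it was lower than in the clusters in set 1. The cluster counts are small and these differences were not tested.

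The share of peaks found again in another library was smaller in the clusters than in the rest of the chromosome in each pair of lists given here, a difference that was not tested. Of the 48 DMSO 2 peaks in the clusters, 26 (54.2%) had at least 50% of their length inside AC220 2 peaks, against 73.1% in the rest. Of the 61 AC220 2 peaks, 30 (49.2%) lay likewise inside DMSO 2 peaks, against 66.5%. In set 1, 6 of 16 DMSO 1 peaks and 6 of 16 AC220 1 peaks (37.5% each) lay inside the other list, against 48.4% and 56.4%. Of 84 cluster windows with a peak base in any library, 40 (47.6%) had it in 1 library alone and 9 (10.7%) in all 4, while in the rest of the chromosome these shares were 13.2% and 52.0%. The narrower width of cluster peaks goes with these counts, and its part in them was not tested. The bases inside peaks of all 4 libraries came to 4.90 kb in the clusters, 4.05% of the 121 kb covered in any, against 26.3% in the rest.

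The gap between the sets was wider in the clusters than elsewhere, which was not tested. From set 1 to set 2 the covered share of the clusters differed 5.58-fold under DMSO and 6.5-fold under AC220. The rest of chromosome 19 differed by 1.996-fold under DMSO and 2.19-fold under AC220, and chromosomes 1 to 22 and X by 2.55-fold and 2.59-fold. Of the 24 cluster windows with a peak base in set 1, 20 had one in set 2 as well (83.3%; 98.4% in the rest of the chromosome). A further 24 of the 84 cluster windows with any peak base had one in both libraries of set 2 and neither of set 1. In the rest of the chromosome this was so for 520 of 3766. When all lists were cut to the length of the shortest, keeping the peaks with the strongest deposited p-values, the clusters were covered over 0.0711% in DMSO 1, 0.119% in AC220 1, 0.0733% in DMSO 2 and 0.106% in AC220 2. The sets then overlapped, and the mean log2 ratio to the rest of the chromosome was -6.79.

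A single narrow peak in 19q13.31 departed from this pattern. It was listed in all 4 libraries, at 44914945 to 44915798 in DMSO 1, 44915538 to 44915766 in AC220 1, 44915117 to 44915831 in DMSO 2 and 44915537 to 44915796 in AC220 2, and was singled out after its values were seen. Its -log10 q was 12.3, 10.4, 12.1 and 8.38. That was the highest of all 2115 chromosome 19 peaks in DMSO 1 and of all 2180 in AC220 1, and the fourth and the fifth highest in the whole of those lists. In DMSO 2 it ranked 13 of 1962 on the chromosome, and in AC220 2 it ranked 24 of 2528. Its fold enrichment was ordinary, at 2.98, 2.41, 2.17 and 1.78. Other chromosome 19 peaks within 0.1 of that fold had a median -log10 q of 1.79, 1.03, 1.92 and 1.16 and a highest of 2.65, 4.60, 10.8 and 4.63. It was 854, 229, 715 and 260 bp wide. Of all chromosome 19 peaks in the same list, 31.1%, 2.7%, 13% and 2.1% were narrower. The peak was thus among the narrowest with AC220, and less so with DMSO. It was wider under DMSO than under AC220 in both sets, and its window (44915001 to 44920000) was covered over 16% and 14.3% with DMSO and over 4.58% and 5.2% with AC220, a separation of 9.1 percentage points. Another short peak of the cluster (44961259 to 44961651, 393 bp), listed in AC220 2 alone, had a -log10 q of 6.2 at a fold of 2.74, where 112 peaks of like fold reached 4.72 at most.

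**Figure D4:**
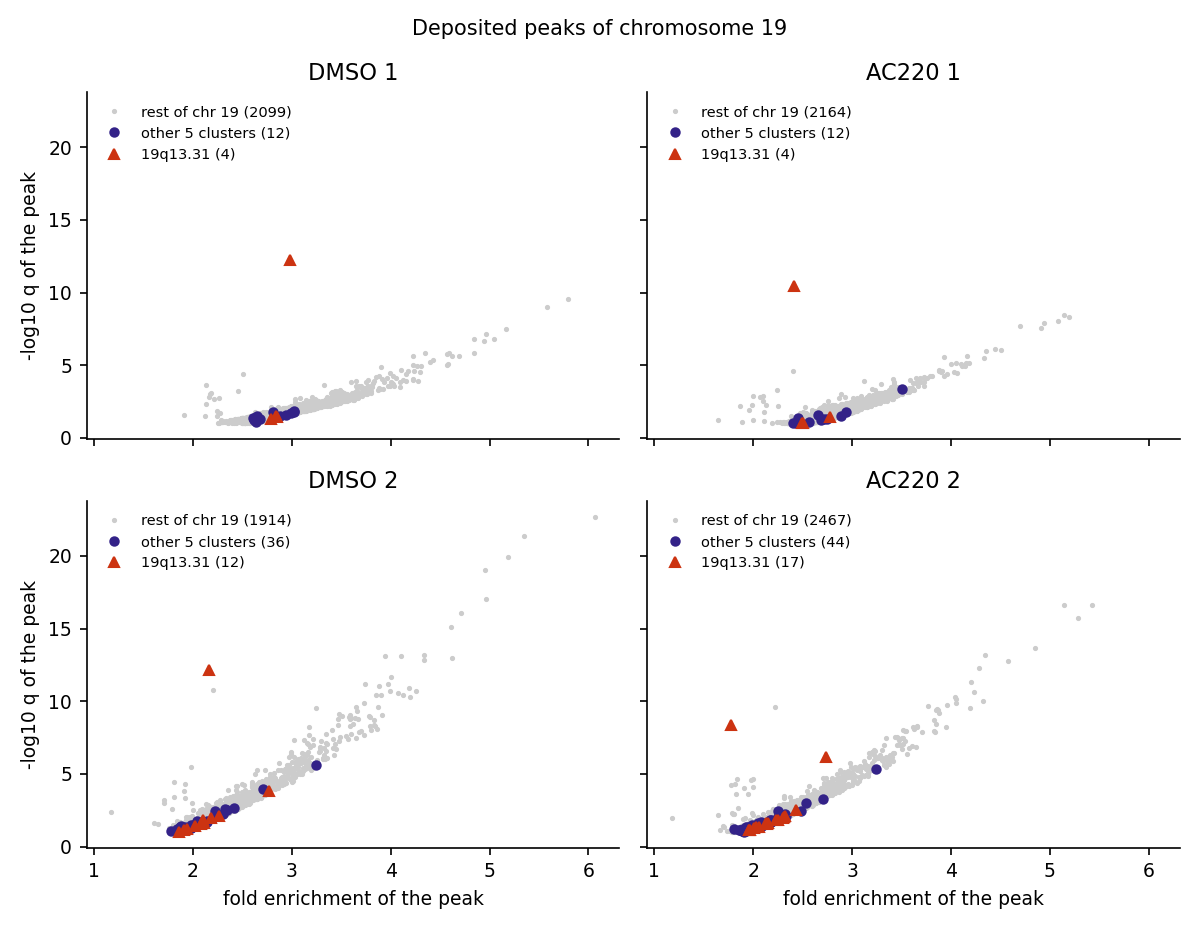
Every deposited peak of chromosome 19 by its deposited fold enrichment (x axis) and -log10 q (y axis), 1 panel per library. Grey, rest of the chromosome, blue, the other 5 clusters, red triangles, 19q13.31, with the number of peaks in brackets. Most cluster peaks have a -log10 q below 2, and the narrow 19q13.31 peak stands above the main band in all 4 panels at a -log10 q of 12.3, 10.4, 12.1 and 8.38.

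In 19q13.43 a single site carried the longest stretch shared by all libraries, and it was stronger in some of them than in others. The stretch from 58858037 to 58858853 (817 bp) was the longest of that cluster inside peaks of all 4 libraries. The peak over it had a fold of 3.24 and a -log10 q of 5.59 in DMSO 2 (58857224 to 58859842), a fold of 3.24 and 5.35 in AC220 2 (58856412 to 58859617), and a fold of 3.5 and 3.38 in AC220 1. In DMSO 1 (58857812 to 58859265) it was weak, with a fold of 2.62 and a -log10 q of 1.35. Its window (58855001 to 58860000) was covered over 29.1%, 16.3%, 52.4% and 64.1% in DMSO 1, AC220 1, DMSO 2 and AC220 2. In 19q13.31 the longest such stretch was 1275 bp (44302232 to 44303506), at the left edge of the span, and its window was covered over 26.6%, 48.5%, 49.3% and 100%. In 19p13.2 it was 245 bp (11971454 to 11971698). AC220 1 had no covered base in 19p12, 19q13.12 or 19q13.41, so no base there could lie inside peaks of all 4 libraries.

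Covered bases near the edges of the spans were nearly all in 19q13.31 and 19q13.43. Over all 6, within 100 kb of an edge lay 10.7% of the span sequence but 42.7% of the covered bases in DMSO 1, 42.9% in AC220 1, 34.1% in DMSO 2 and 31.7% in AC220 2. In 19q13.31, where 28.6% of the sequence is that near an edge, the share was 64.0%, 88.9%, 48.4% and 44.0% in the same order. In 19q13.43 it was 40.6%, 43.3%, 51.1% and 39.8%. The other 4 clusters had no covered base within 100 kb of an edge in DMSO 1, AC220 1 or DMSO 2. In AC220 2 they had 1.24 kb in 19p12, 0.451 kb in 19p13.2, 1.56 kb in 19q13.41 and none in 19q13.12. The flanks, 500 kb to each side and 5.53 Mb in all, were covered over 4.61%, 4.37%, 10.2% and 11.4%. That is above the clusters and below the rest of the chromosome as a whole. The flanks differed among themselves. The left flank of 19q13.12 was covered over 14% in DMSO 1, 11.2% in AC220 1, 23.4% in DMSO 2 and 25% in AC220 2, and no peak lay within 122 kb of the span. The left flank of 19q13.43 was as bare as the cluster itself, at 0.576%, 0%, 2.01% and 1.69%, so no step in coverage marked that edge. The right flank of 19p12, 80% of which is a centromeric band, held no peak in any library, and the right flank of 19q13.43 is only 29.0 kb long because the chromosome ends there.

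**Figure D5:**
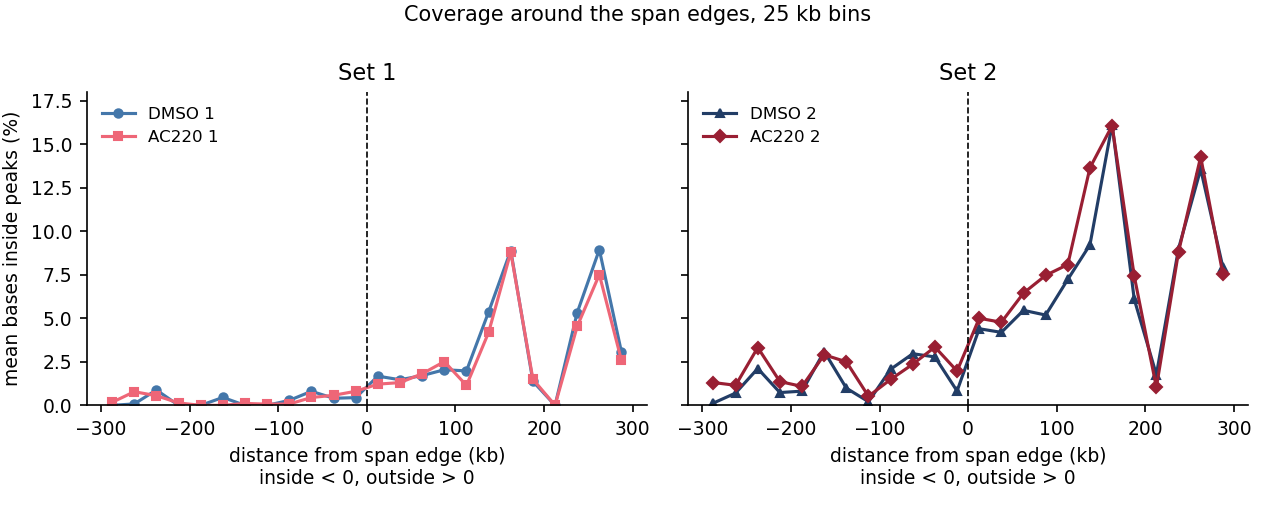
Mean covered share (%) in bins of 25 kb by distance from the span edge (kb; below 0 inside the span, above 0 outside), averaged over 12 edges inside and 11 or 12 outside, for set 1 (left) and set 2 (right). Every bin inside is at or below 3.35%, and outside the means reach 8.95% in set 1 and 16.1% in set 2, with an uneven course.

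For the clusters as a whole the treatments differed little, and in opposite directions in the 2 sets. In set 1 the covered share of the 6 clusters was 0.122% with DMSO and 0.119% with AC220, a log2 ratio of -0.03. In set 2 it was 0.679% and 0.776%, a log2 ratio of 0.19. In the rest of chromosome 19 the log2 ratios were -0.14 and -0.01, and over chromosomes 1 to 22 and X -0.27 and -0.25. Pooled, DMSO libraries had a mean covered share of 0.400% ± 0.394 and AC220 libraries of 0.448% ± 0.464 (SD, n = 2 each), a log2 difference of 0.08 (exact permutation test, two-sided, p = 1, where 2 against 2 libraries cannot give less than 0.333). This is far smaller than the spread between the libraries of a treatment. With all lists cut to equal length, the log2 difference was 0.64 and the treatments did not overlap (exact permutation p = 0.333). The pooled direction turned without DMSO 1 (-1.16) or AC220 2 (-1.27), which leaves the sets unbalanced. The log2 ratio of clusters to rest averaged -5.71 ± 1.05 in DMSO libraries and -5.55 ± 1.11 in AC220 libraries (SD, n = 2), a difference of 0.16 (exact permutation p = 0.667) that turned to -0.58 without DMSO 1 and to -0.62 without AC220 2. Within both sets the ratio of AC220 to DMSO was higher in the clusters than in the rest (-0.03 against -0.14 in set 1, 0.19 against -0.01 in set 2), and with 2 libraries a treatment no test could pass 0.05.

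By cluster, 19p13.2 was covered more with AC220 within both sets and 19p12 less. In 19p13.2 the share went from 0.0223% to 0.298% in set 1 and from 0.324% to 1.07% in set 2, log2 ratios of 3.74 and 1.73. The treatments overlapped when pooled, AC220 1 lying below DMSO 2 (exact permutation p = 0.667, adjusted by Benjamini-Hochberg over the 6 clusters p = 1). These ratios rest on little sequence: 0.245 kb and 3.28 kb in set 1, and 3.56 kb and 11.8 kb in set 2, with DMSO and AC220. At equal list length neither library of set 2 listed a peak there. In 19p12 the covered length was 1.22 kb with DMSO and 0 with AC220 in set 1, and 13.7 kb and 6.59 kb in set 2 (exact permutation p = 0.667, adjusted p = 1). It turned to 0.0461 percentage points higher with AC220 without DMSO 2. In 19q13.31 the log2 ratios were -0.34 and 0.41 and in 19q13.43 -0.23 and 0.04, in opposite directions between the sets. In 19q13.12 and 19q13.41, empty in set 1, set 2 alone gave log2 ratios of 0.23 and 0.78. Every adjusted p over the 6 clusters was 1.

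Peaks in the clusters were narrower with AC220 within each set, at a median of 812.5 bp against 675.5 bp in set 1 and 1358 bp against 887 bp in set 2 with DMSO and AC220. The pooled log2 difference was -0.44 (exact permutation p = 0.667). Peaks in the rest of the chromosome were narrower with AC220 too, at 1394 bp against 1206.5 bp in set 1 and 2935 bp against 2057 bp in set 2. The number of peaks was 16 under both treatments in set 1, and 48 with DMSO and 61 with AC220 in set 2, a pooled log2 difference of 0.17 (exact permutation p = 1). It turned to -0.62 without DMSO 1 and to -0.79 without AC220 2.

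No window of the clusters separated the treatments clearly. A window was called when the lower share of one treatment exceeded the higher share of the other by at least 25 percentage points. None of the 2240 windows was called lower with AC220 and none higher, against a background of 0.0883% lower and 0.0171% higher over chromosomes 1 to 22 and X, and 0.115% and 0.0104% in the rest of chromosome 19. Shares this low leave the count of 0 without a reading for the clusters. With a single library left out, a treatment keeps 1 library of 1 set. Some windows were then called, but such calls cannot be told apart from the gap between the sets and have no matching background. Counting any difference within both sets, 6 windows (0.268%) were lower with AC220 and 7 (0.312%) higher, and 7 went in opposite directions. The background for these counts is 6.9% lower and 2.47% higher over chromosomes 1 to 22 and X, and 6.36% and 5.51% in the rest of the chromosome. Only 84 cluster windows held a peak base in any library, beside which these counts stand.

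The windows with the widest separations were few and were chosen for naming after their values were seen. In 19p12, window 21405001 to 21410000 was covered over 10.8% in DMSO 1 and 37.9% in DMSO 2, and held no peak base in AC220 1 or AC220 2. The DMSO 1 peak in it (21404888 to 21405540, 653 bp) lay wholly inside the DMSO 2 peak (21403539 to 21406893, 3355 bp), the longest of that cluster. In 19q13.43, window 59040001 to 59045000 was covered over 25.9% and 59.2% with DMSO and over 0% and 14.2% with AC220. In both windows every DMSO value was above every AC220 value, by 10.8 and 11.8 percentage points. In the opposite direction, window 11970001 to 11975000 of 19p13.2 was covered over 4.90% and 42.3% with DMSO and over 46.9% and 61.8% with AC220, a separation of 4.60 points. Close by, window 11985001 to 11990000 was covered over 0% and 7.92% with DMSO and over 10.4% and 59.1% with AC220, a separation of 2.44 points, and the longest peak of that cluster in AC220 2 (11984323 to 11987953, 3631 bp) lay across it. Both windows lie in a tile of 100 kb (11900001 to 12000000) that held all peak bases of 19p13.2 in both libraries of set 1. It was covered over 0.245% and 2.51% with DMSO and over 3.28% and 7.38% with AC220, set 1 first.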

How the data were processed

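The authors' deposited files are 4 lists of broad peaks, 1 per immunoprecipitated library, without a header; per the submitters' processing notes the tools were MACS2 2.1 and BWA 0.7.10-r789, whose roles are not given. The genome build, and whether inputs or Drosophila reads entered peak calling, are not given in the sources used here; peak ends fit GRCh37 (the highest on chromosome 19 is 59115503, its length 59128983). The deposited positions are in bp and are printed counting from 1. The deposited fold is the enrichment of a peak over its own library's background, and the deposited p-value and q-value are given as -log10. The deposited score is 10 times the -log10 q in at least 99.99% of peaks of each list. Peaks within a list did not overlap.

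Covered shares were computed per base with pandas 2.3.3 and numpy 2.4.6 under Python 3.11.15; bands came from circlize 0.4.16 in R 4.3.3. A peak belongs to the span that holds its midpoint. Tests were exact: permutation over the 6 assignments of 4 libraries, on log2 shares or, where a library was at 0, on percentages, and sign flips over libraries. The window rule was tested on simulated peak lists. Alternatives were stricter q, trimmed lists, other spans, flanks and windows, and leaving out libraries. Named stretches are each cluster's longest peaks, longest stretches shared by all 4 libraries and longest peak-free stretches, and windows called by the 25-point rule; others are marked in the text. Members, lists and tests were chosen with earlier results of these data known. No sequence is printed, since no genome of this build was used here. Inputs were left out.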

Additional observations from a re-analysis of the deposited data

How the results depend on the processing

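The low coverage of the clusters against the rest of chromosome 19 held under all 6 alternatives other than leaving out a library (log2 from -4.56 against the 500 kb flanks to -7.53 with a -log10 q of at least 2) and without any single library (-5.92 to -5.35). The percentage of windows without a peak was 96.3 to 97.3 without any single library, a setting that can only keep or raise it. Treatment differences turned in direction or fell to 0 under some alternative or without some library, except in median peak width. That kept its direction wherever it was computed. In 19p13.2 the direction held wherever a ratio could be computed, but those ratios rest on little sequence. With a -log10 q of at least 5 no library had a covered base there. With a -log10 q of at least 5 the log2 ratio of AC220 to DMSO was -0.84 in the clusters, -1.01 in 19q13.31 and -0.70 relative to the rest. At that limit 19p13.2, 19p12, 19q13.12 and 19q13.41 stood at 0 in every library. With at least 2, 19q13.31 was at -0.79. With DMSO lists trimmed to AC220 length, 19p12 was 0.0229 points higher and 19q13.43 at 0.80. With all lists at equal length the clusters were at 0.64 (exact permutation p = 0.333) and treatments did not overlap. There 19q13.31 was at -0.73 and 19q13.43 at 0.76, and 19q13.12 and 19q13.41 had no covered base in any library. With spans shortened by 100 kb, 19q13.31 was at -0.76 and 19q13.43 at 0.017. The cause was not tested. Cluster windows lower with AC220 numbered 2 at a separation of 10 points and 1 with windows of 2 kb. No background was computed at these settings, so the counts have no reading for the clusters. In percentage points, leaving out single libraries gave -0.231 to 0.0461 for 19p12, -0.117 to 0.158 for 19q13.12 and -0.0929 to 0.226 for 19q13.41. On the log2 scale it gave -1.27 to 1.43 for the clusters, 0.81 to 4.67 for 19p13.2, -1.47 to 1.53 for 19q13.31 and -1.24 to 1.04 for 19q13.43. It gave -0.62 to 0.94 for clusters relative to rest, -0.79 to 1.14 for peak number, -0.81 to -0.07 for median width, and 0 to 7 windows lower and 0 to 10 higher. For 19p13.2 and 19q13.43 both q limits, and for 19p13.2 equal length, gave no ratio, since some or all libraries stood at 0. The numbers in the labels do not say that libraries were paired; with a replicate block the values are the same means, 0.08 for the clusters and 0.16 relative to the rest, with exact p from 0.5, the smallest possible, to 1. Across windows of chromosomes 1 to 22 and X the deviations of same-numbered libraries had a correlation of 0.70. Alternatives for windows without a peak, and leaving out libraries for the ratio to the rest and the window counts, were added after seeing the data.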
